A study of Arabidopsis thaliana with 14 samples.

Results

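The mitochondrion-encoded genes are the genes whose identifiers begin with ATMG, the code for loci of the Arabidopsis mitochondrial genome. The tables of this RNA-Seq series listed 117 of them among 24350 genes, and all 117 were taken. By their annotation, 37 have a known role and 80 are open reading frames of unknown role. No mitochondrial ribosomal RNA or transfer RNA gene was among them.

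The series covers 14 samples of dark-grown Arabidopsis seedlings, labelled as hypocotyl and grown for 6 days, in 5 groups. Wild-type plants were Col-0. The mutant bzr1-1D has a dominant, constantly active form of BZR1, the transcription factor through which brassinosteroids act on genes. All groups, the mock groups included, received 2 µM of PPZ (propiconazole), which blocks brassinosteroid synthesis. The groups were Col-0 mock, Col-0 with 1 µM DPI, bzr1-1D mock, bzr1-1D with 1 µM DPI, each with 3 labelled samples, and bzr1-1D with 1 µM DPI and 0.3 mM H2O2, with 2. DPI (diphenyleneiodonium) inhibits NADPH oxidases and other flavin-dependent enzymes and lowers H2O2, and the comparisons ask how expression depends on BZR1 activity and on H2O2. The labels do not tie the samples to separate cultures.

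The values are the authors' means of each group, 1 per gene and group, in FPKM (fragments scaled by gene length and library size). Values per sample were not analysed here. The differences below are therefore ratios of group means with no standard deviation, no test and an unknown read depth, and "higher" or "lower" in a count means at least 1.5-fold. The lowest value in the tables is 0.01 FPKM, which apparently replaced a mean of 0, so a ratio against it has no defined size. The decimals of the bzr1-1D mock means are those of averages over 2 libraries, although the labels list 3 samples: 100% of them became whole when multiplied by 200, to within 0.001, against 52.6% when multiplied by 300. POR A (AT5G54190), a protochlorophyllide reductase gene typical of dark-grown seedlings, ranged over the groups from 294.8 FPKM, in bzr1-1D mock, to 1121 FPKM, in Col-0 mock. The label hypocotyl was not checked by a marker. In such bulk RNA, fewer mitochondria or cells and less RNA in each cannot be told apart.

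The plant mitochondrial genome encodes a small set of proteins of the respiratory chain and ATP synthase, factors that attach heme to cytochrome c, some ribosomal proteins, a maturase that helps introns to splice and a transport protein. Many more subunits come from the nucleus. Its transcripts are spliced, in nad1, nad2 and nad5 from pieces transcribed apart, and are edited by changing cytidines to uridines. They mostly carry no stable poly(A) tail. These libraries were described as mRNA libraries, and the part of that step in the values was not tested. In Col-0, a large part of the mitochondrial genome has also been copied into chromosome 2, where many of its genes stand again as nuclear loci.

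This copy bears on many of the values below. In the RefSeq sequences of assembly TAIR10.1, 106 of the 117 members could be matched by name, and 79 of these had a nuclear copy of at least 95% identity over at least 80% of the coding sequence. On chromosome 2, 89 members had a matching stretch between positions 3239341 and 3565447. The other 27 matched members had no such copy, among them 10 genes of known role: nad1b, nad4L, nad5c, nad9, cox1, cox2, atp4, ccmB, rps3 and rpl16. The coding sequences of 3 members show the cases that matter for the values. Capitals mark the cytidines that the reference annotates as edited to uridine, and of each sequence at most the first 300 bases are printed.
nad4L (complex I, mitochondrial genome 361637 to 361939, plus strand, 10 edited sites, no near-identical nuclear copy): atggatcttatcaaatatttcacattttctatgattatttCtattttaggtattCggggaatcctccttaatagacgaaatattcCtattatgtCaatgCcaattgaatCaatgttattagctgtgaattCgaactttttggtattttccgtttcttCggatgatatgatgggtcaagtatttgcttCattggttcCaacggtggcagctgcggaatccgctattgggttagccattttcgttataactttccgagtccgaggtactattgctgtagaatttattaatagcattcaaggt
nad3 (complex I, 288044 to 288400, plus strand, 11 edited sites, 9 of them in the stretch printed, copied whole as AT2G07751): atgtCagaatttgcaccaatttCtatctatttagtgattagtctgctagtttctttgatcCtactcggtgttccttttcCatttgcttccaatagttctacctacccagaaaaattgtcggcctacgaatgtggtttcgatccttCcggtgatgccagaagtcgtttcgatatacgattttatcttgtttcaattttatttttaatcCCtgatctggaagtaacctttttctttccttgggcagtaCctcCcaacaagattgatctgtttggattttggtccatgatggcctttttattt
atp9 (ATP synthase, 270961 to 271185, minus strand, 4 edited sites, copied whole as AT2G07671): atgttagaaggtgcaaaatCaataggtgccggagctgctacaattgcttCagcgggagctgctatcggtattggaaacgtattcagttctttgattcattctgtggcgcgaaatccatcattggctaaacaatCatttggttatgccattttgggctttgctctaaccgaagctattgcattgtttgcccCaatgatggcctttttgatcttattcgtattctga
These positions are those of the TAIR10.1 mitochondrial sequence, which differs from the one the files' coordinates use. For nad3 and atp9 the longest nuclear match was 100% identical. For nad4L, nuclear matches covered 31.7% of the sequence.

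For 48 pairs of a member and a near-identical nuclear locus, both were listed. In 5 of the 48 pairs the authors' means were equal in all 5 groups, and of the others the nuclear locus had the higher sum over the groups in 27 and the member in 16. The values of rps12 and AT2G07675 were equal, and so were those of atp8 and AT2G07707. In all, 6 sets of loci had equal values in every group, among them orf139a with orf139b and orf152a with orf152b, pairs within the mitochondrial genome. The member atp1, at 33.8 FPKM in Col-0 mock, stood above its locus AT2G07698, at 4.72 FPKM. For nad3 the nuclear locus was higher. The member nad3 stood at 0.01 FPKM in Col-0 DPI, bzr1-1D mock and bzr1-1D DPI+H2O2, at 1.50 FPKM in bzr1-1D DPI, and was not listed for Col-0 mock. AT2G07751 was at 3.02 to 4.63 FPKM in the 5 groups. For genes with such a copy, mitochondrial and nuclear origin cannot be told apart.

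Summed over members, the mitochondrion-encoded genes gave 269.6 and 474.3 FPKM in Col-0 without and with DPI, and 224.1, 519.8 and 482.8 FPKM in bzr1-1D without DPI, with DPI and with DPI+H2O2. These sums were 0.0386%, 0.0649%, 0.0322%, 0.0732% and 0.0688% of the sums over all genes, in the same order. The 3 groups with DPI thus lay above both mock groups. The summed level was 1.76-fold higher with DPI in Col-0 and 2.32-fold higher in bzr1-1D. Over the 27 members with no near-identical nuclear copy, these ratios were 2.21 and 2.48. The plastid-encoded genes, the other organelle's genes in these libraries, summed to 1.04-fold and 1.25-fold of mock.

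Few members were abundant. In Col-0 mock 47 members had at least 1 FPKM and 5 had more than 10 FPKM, while 16 stood at 0.01 FPKM. In bzr1-1D mock 30 members stood at 0.01 FPKM, against 7 or 8 in the groups with DPI. Apart from these, members not listed for a group numbered 3 in Col-0 mock and 1 in Col-0 DPI. They numbered 2, 2 and 6 in bzr1-1D mock, DPI and DPI+H2O2. The bzr1-1D mock means appear to rest on 2 libraries, and bzr1-1D DPI+H2O2 has 2 labelled samples, against 3 in the other groups. The highest member was orf107a in every group except Col-0 mock, where atp1 was highest, and the 2 highest members of a group held between 21.0% and 30.1% of the members' sum.

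**Figure D1:**
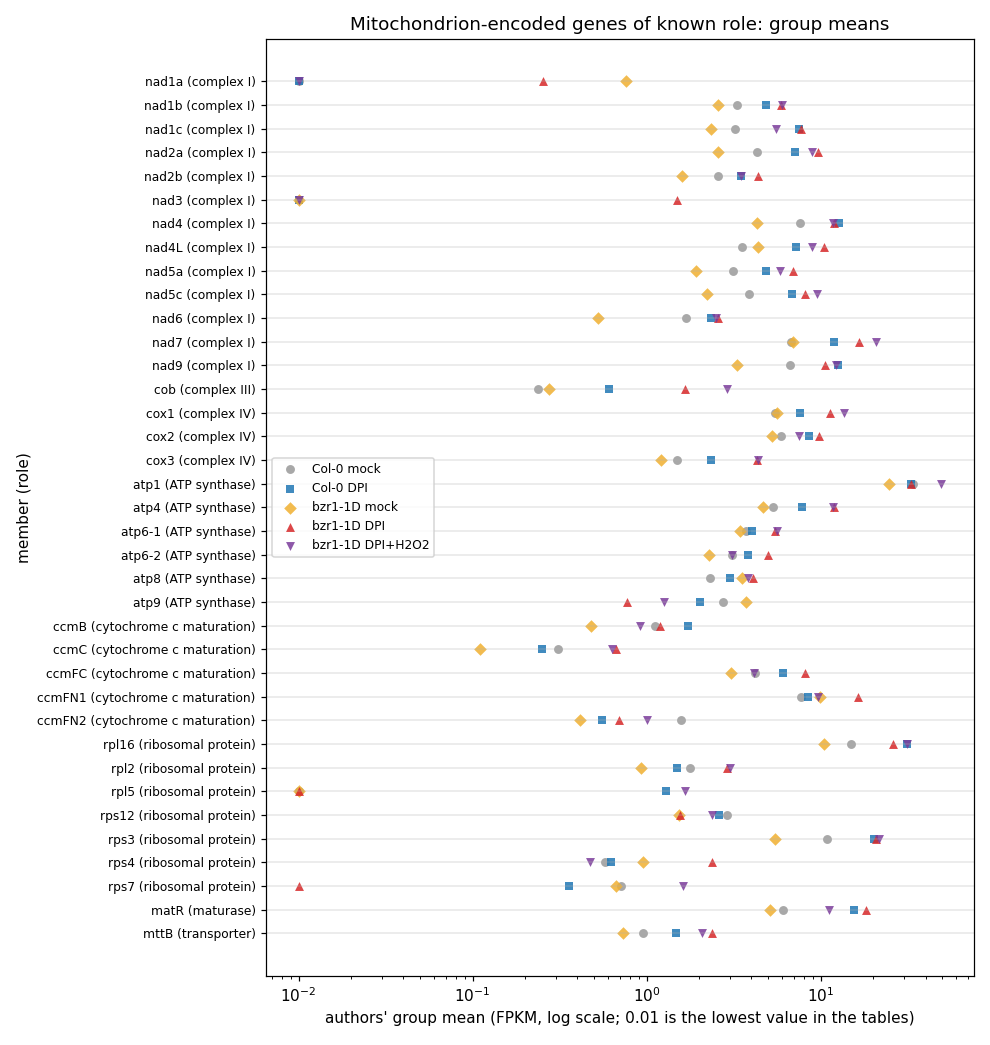
Authors' group means of the 37 members of known role, in FPKM on a log axis; each point is 1 group and the lowest value in the tables, 0.01 FPKM, is drawn at its place. For rps3 the 3 groups with DPI lie between 20.3 and 21.6 FPKM and the mock groups at 10.9 and 5.43 FPKM.

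In wild-type seedlings, most mitochondrion-encoded genes were higher with DPI than in mock. Of the 112 members in the table of Col-0 DPI against Col-0 mock, 65 were higher and 10 lower. Over all genes of that table, 8.41% were higher and 30.1% lower, against 58.0% and 8.93% of the members. The members' median log2 ratio was 0.71, beside -0.30 for all genes. Among the 50 members averaging 1 FPKM or more in this pair of groups, 27 were higher and 2 lower, with a median of 0.63, where the same filter left 4.01% of all genes higher and 25.2% lower. Of the 88 plastid-encoded genes, 7 were higher and 1 lower, with a median of 0.10.

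The ratios were larger in bzr1-1D. Of 109 members in the table of bzr1-1D DPI against bzr1-1D mock, 91 were higher and 6 lower, or 83.5% and 5.50%, with a median log2 ratio of 1.46. Over all genes, 18.6% were higher and 32.3% lower, with a median of -0.25. Above the same minimum, 42 of 49 members were higher and 1 lower, against 15.0% and 29.7% of all genes. Plastid-encoded genes were higher in 61 of 87, with a median of 0.86, so in this genotype both organelles' genes were mostly higher. The bzr1-1D mock means enter all of these ratios and appear to rest on 2 libraries.

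**Figure D2:**
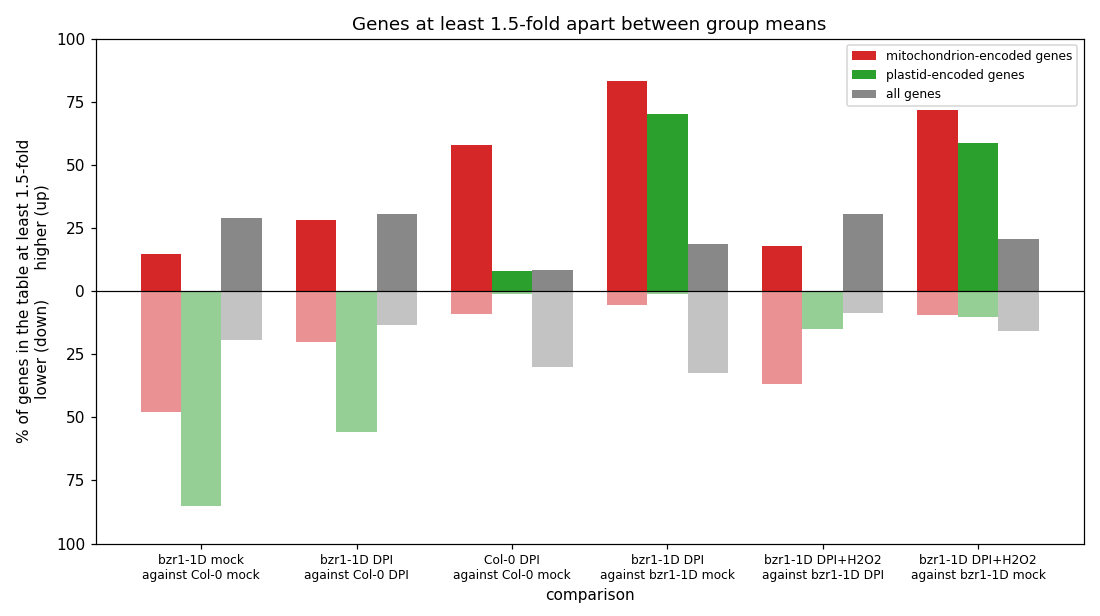
Percent of genes at least 1.5-fold higher (upward bars) or lower (downward, paler bars) between the authors' group means, for mitochondrion-encoded genes, plastid-encoded genes and all genes in each of the 6 tables. With DPI in Col-0, 58.0% of the mitochondrion-encoded genes but 7.95% of the plastid-encoded genes are higher.

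The counts by role below stand beside these shares of all genes with DPI against mock. In Col-0 8.41% were higher and 30.1% lower, and in bzr1-1D 18.6% and 32.3%. Complex I, the NADH dehydrogenase that feeds electrons into the respiratory chain, had the most members. Of its 11 genes in the Col-0 DPI table, 8 were higher and none lower, and the 11 log2 ratios lay between 0.43 and 1.21. In bzr1-1D, 12 of 13 were higher, nad3 from 0.01 FPKM, and nad1a was lower. The subunit gene nad9 had means of 6.63 and 12.6 FPKM in Col-0 without and with DPI, and 3.31, 10.6 and 12.2 FPKM in bzr1-1D without DPI, with DPI and with DPI+H2O2. It was 1.90-fold higher with DPI in Col-0 and 3.22-fold higher in bzr1-1D, and it has no near-identical nuclear copy. The sequence shown above as nad4L went from 3.51 to 7.25 FPKM in Col-0 and from 4.37 to 10.4 FPKM in bzr1-1D, with 8.92 FPKM after H2O2. The groups with DPI were all above the mock groups for both genes. Of the copied complex I genes, nad7 had 6.74 and 11.9 FPKM in Col-0 and 6.96, 16.6 and 20.9 FPKM in the bzr1-1D groups, and nad4 had 7.56 and 12.7 FPKM in Col-0 and 4.33, 11.9 and 11.8 FPKM in the bzr1-1D groups. In the files, whose coordinates are those of the TAIR10 mitochondrial chromosome, nad9 lies at 23663 to 24235 on the minus strand, beside rpl16 at 25076 to 25615 and rps3 at 25482 to 28733 on the same strand.

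The members nad1b, nad1c, nad2a, nad2b, nad5a and nad5c are among the pieces that trans-splicing joins into the mRNAs of nad1, nad2 and nad5. Each was higher in bzr1-1D with DPI than in bzr1-1D mock, by log2 ratios from 1.21 for nad1b to 1.91 for nad2a. The remaining piece among the members, nad1a, was listed at 0.01 FPKM in both Col-0 groups and in bzr1-1D DPI+H2O2. It stood at 0.76 FPKM in mock bzr1-1D plants and at 0.25 FPKM with DPI. Its nuclear copy AT2G07785 went from 1.95 to 4.86 FPKM in Col-0 and from 1.36 to 4.91 FPKM in bzr1-1D with DPI. Added up as reads, weighting each value by its gene length, nad1a and AT2G07785 together were higher with DPI in bzr1-1D by a log2 ratio of 1.57, where the member alone gave -1.58.

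Cytochrome b of complex III is encoded by cob, and the core subunits of cytochrome oxidase, complex IV, by cox1, cox2 and cox3. The values of cob were low, at 0.24 and 0.61 FPKM in Col-0 and 0.28, 1.66 and 2.89 FPKM in bzr1-1D mock, DPI and DPI+H2O2, and its copy AT2G07727 held more, at 5.68, 6.90, 3.91, 8.58 and 12.0 FPKM in the 5 groups. Of the cox genes, 3 of 3 were higher with DPI in bzr1-1D, by log2 ratios of 0.89 to 1.83. In Col-0 only cox3 of the 3 was higher, by 0.64, and cox1 and cox2 gave 0.50 and 0.54. The member cox2 had 5.89 and 8.53 FPKM in Col-0 and 5.25, 9.71 and 7.53 FPKM in the bzr1-1D groups, and cox3 had 1.5 and 2.34 FPKM in Col-0 and 1.22, 4.32 and 4.34 FPKM in the bzr1-1D groups. The means of cox1 were 5.43 and 7.65 FPKM in Col-0 without and with DPI, and 5.58, 11.3 and 13.7 FPKM in bzr1-1D without DPI, with DPI and with DPI+H2O2.

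ATP synthase makes ATP from the proton gradient. None of its 6 members was at least 1.5-fold apart between Col-0 DPI and Col-0 mock, and in bzr1-1D 3 were higher and 1 lower. The member atp1, a catalytic-head subunit and among the highest of all members, had means of 33.8 and 32.9 FPKM in Col-0 without and with DPI, and 24.6, 33.2 and 49.3 FPKM in bzr1-1D without DPI, with DPI and with DPI+H2O2. The member atp4 was at 5.35 and 7.85 FPKM in Col-0 and 4.65, 11.9 and 11.8 FPKM in the bzr1-1D groups. For atp8, whose values are also those of AT2G07707, they were 2.33 and 3.02 FPKM in Col-0 and 3.54, 4.06 and 3.83 FPKM in the bzr1-1D groups. Each of atp6-1 and atp6-2 had 2.28 to 5.64 FPKM in every group. The ring subunit gene atp9 went the other way, from 3.74 FPKM in bzr1-1D mock to 0.77 FPKM in bzr1-1D DPI. That direction holds for the member alone. Its near-identical copy AT2G07671 went from 11.3 to 17.1 FPKM, and both together gave a log2 ratio of 0.36, where atp9 alone gave -2.28. Only the 225 coding bases were compared, while the listed atp9 has 504 bases. Of those coding bases, 83.6% also matched a second place in the mitochondrial genome, which the sum leaves out. In Col-0, 4 of the 15 known-role members with a listed copy lay below mock alone and above it in the sum, namely atp9, rps7, rpl2 and ccmC.

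**Figure D3:**
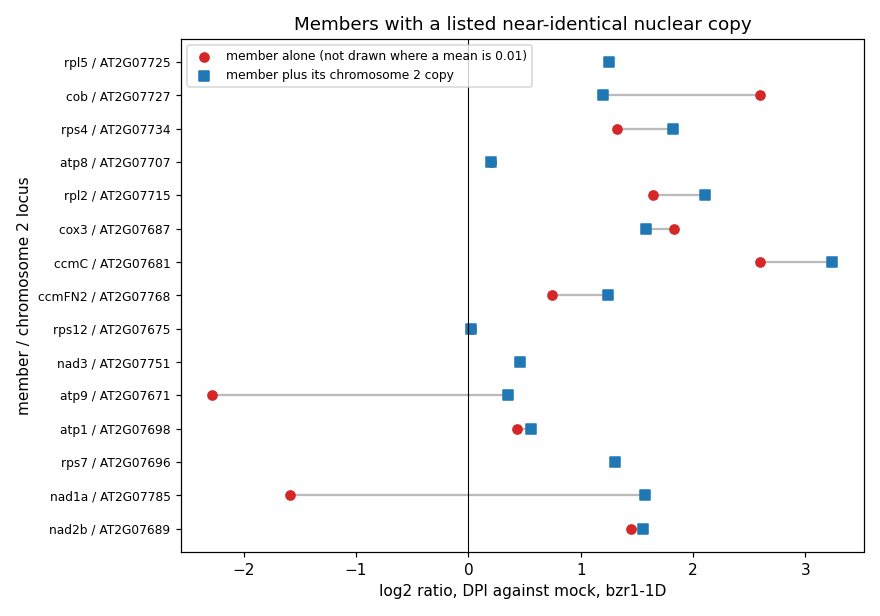
Log2 ratio of bzr1-1D DPI against bzr1-1D mock for the 15 members of known role with a listed near-identical nuclear locus, alone (circles) and summed with that locus by length (squares). All 15 sums lie above 0, whereas atp9 and nad1a alone lie below it, as does rps7, which goes from 0.665 to 0.01 FPKM and so has no circle.

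Of the 7 ribosomal protein genes, 3 were higher and 1 lower with DPI in Col-0, and in bzr1-1D 4 of 6 were higher and 1 lower. The pair rpl16 and rps3, the highest of them and both without a near-identical copy, were higher with DPI in both genotypes. For rpl16 the means were 15.0 and 31.3 FPKM in Col-0 and 10.5, 26.2 and 31.2 FPKM in the bzr1-1D groups, and for rps3 10.9, 20.3, 5.43, 20.8 and 21.6 FPKM in the same order. The values of rps12, equal to those of its copy, were 2.91 and 2.61 FPKM in Col-0 and 1.53, 1.56 and 2.38 FPKM in the bzr1-1D groups, so DPI and mock were close. For rps7, which went from 0.71 to 0.36 FPKM in Col-0 and from 0.665 to 0.01 FPKM in bzr1-1D, the sum with AT2G07696 turned the direction, with log2 ratios of 0.92 and 1.30. The member rpl5 was at 0.01 FPKM in both mock groups and in bzr1-1D DPI and at 1.29 FPKM in Col-0 DPI, and its sum with AT2G07725 gave 0.22 and 1.25. The member rpl2 had 1.78 and 1.49 FPKM in Col-0 and 0.925, 2.89 and 3 FPKM in the bzr1-1D groups, while its sum with AT2G07715 was higher with DPI in both genotypes, by log2 ratios of 1.21 in Col-0, where the member alone gave -0.25, and 2.11 in bzr1-1D. For rps4 the means were 0.577 and 0.623 FPKM in Col-0 and 0.95, 2.38 and 0.475 FPKM in the bzr1-1D groups. Its sum with AT2G07734 gave log2 ratios of 1.13 in Col-0, where the member alone gave 0.11, and 1.82 in bzr1-1D. From bzr1-1D DPI to bzr1-1D DPI+H2O2, AT2G07734 went from 4.63 to 8.13 FPKM while the member fell. The maturase gene matR, which lies within an intron of nad1, was 2.54-fold higher in Col-0, from 6.09 to 15.5 FPKM, and 3.55-fold higher in bzr1-1D, from 5.14 to 18.2 FPKM. Its neighbour nad1c was 2.32-fold and 3.32-fold higher. The transporter gene mttB was 1.54-fold and 3.21-fold higher. Each of matR, nad1c and mttB has a near-identical nuclear copy with no listed locus, so no sum could be made.

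The cytochrome c maturation genes were all higher with DPI in bzr1-1D, 5 of 5, by log2 ratios between 0.72 and 2.59. In Col-0, 1 was higher and 1 lower. The lower one, ccmFN2, went from 1.57 to 0.55 FPKM. Its listed copy AT2G07768 went from 0.01 to 0.60 FPKM, and both together gave a log2 ratio of -0.64, where ccmFN2 alone gave -1.50. In bzr1-1D this sum gave 1.25. The uncopied ccmB had 1.12 and 1.74 FPKM in Col-0 and 0.48, 1.19 and 0.92 FPKM in the bzr1-1D groups. The copied ccmFC had 4.18 and 6.1 FPKM in Col-0 and 3.04, 8.11 and 4.13 FPKM in the bzr1-1D groups. The highest of the 5, ccmFN1, was at 7.71 and 8.42 FPKM in Col-0 and at 9.90, 16.3 and 9.59 FPKM in the bzr1-1D groups. Both ccmFC and ccmFN1 have a near-identical nuclear copy with no listed locus, so no sum could be made.

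For the 10 members of known role without a near-identical nuclear copy, partial nuclear matches covered from 0% (atp4 and ccmB) to 42.8% (cox2) of the coding sequence. All 10 were above mock with DPI in Col-0, 6 of them at least 1.5-fold, by log2 ratios of 0.50 to 1.07. In bzr1-1D 10 of 10 were at least 1.5-fold higher, by 0.89 to 1.94. Over all 27 members without such a copy, 18 of 27 were higher and 2 lower in Col-0, with a median of 0.89. In bzr1-1D 22 of 25 were higher and 1 lower, with a median of 1.34. The 39 nuclear loci that copy a member were higher in 19 of 38 and lower in 2 in Col-0. In bzr1-1D 34 of 38 loci were higher and 0 lower. Over all genes, 8.41% were higher and 30.1% lower in Col-0, and 18.6% and 32.3% in bzr1-1D.

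The open reading frames included the most abundant member. Of those listed, 49 of 77 were higher with DPI in Col-0 and 61 of 73 in bzr1-1D, or 63.6% and 83.6%. Over all genes, 8.41% and 18.6% were higher. Of these frames, 13 in Col-0 and 23 in bzr1-1D rose from a mock mean of 0.01 FPKM, so their ratios have no defined size. The most abundant member, orf107a, lies at 11918 to 12241 of the files' mitochondrial chromosome, and a partial nuclear match covered 46.9% of it. It had means of 30.2 and 85.0 FPKM in Col-0 without and with DPI, 42.8 FPKM in the bzr1-1D mock group and 72.4 FPKM in both bzr1-1D DPI and bzr1-1D DPI+H2O2. It was 2.82-fold higher in Col-0 and 1.69-fold in bzr1-1D, so here Col-0 had the larger ratio. The next, orf149, was at 11.8 and 35.6 FPKM in Col-0 and 8.84, 37.0 and 22.9 FPKM in the bzr1-1D groups. Its ratios with DPI were 3.03 and 4.18. For orf240a they were 2.79 and 5.16, and for orf107h 1.55 and 3.05.

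Other frames marked the ends of the range among those averaging 1 FPKM or more. The largest ratios in Col-0 belonged to orf275, at 3.10, orf149, and orf161, at 3.02. The smallest belonged to orf101b, at 0.390, orf294, at 0.760, and orf113, at 0.991. In bzr1-1D, orf291 was listed at 0.01 FPKM in mock and at 2.31 FPKM with DPI, and orf145c and orf109 were 9.65-fold and 6.66-fold higher. At the low end were orf114, at 1.02, orf113, at 1.11, and orf111d, at 1.37. The direction differed between the genotypes for orf101b, which went from 1.50 to 0.59 FPKM in Col-0 and from 0.52 to 2.46 FPKM in bzr1-1D. That frame has a near-identical nuclear copy with no listed locus. Summed with their listed copies, log2 ratios in Col-0 were 0.91 for orf161, 0.07 for orf113 and -0.04 for orf294, whose locus also copies atp1. In bzr1-1D the sums gave 1.13 for orf291, 2.21 for orf109, 0.55 for orf114 and 0.50 for orf113. No near-identical copy was found for orf275, orf149, orf145c and orf111d.

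The ratios in the 2 genotypes share no group. Over the 105 members in both tables, the log2 ratio in bzr1-1D exceeded that in Col-0 by a median of 0.66. Per gene, this difference equals the log2 ratio of bzr1-1D to Col-0 with DPI minus that ratio in mock. Those ratios had medians of 0.23 over 114 members and -0.52 over 102. The difference is therefore not a result apart from the mock comparison below. Both use the bzr1-1D mock means, which appear to rest on 2 libraries. Averaged over these 4 groups and kept from 1 FPKM upwards, 43 of 49 members, or 87.8%, had the larger ratio in bzr1-1D, where 57.3% of the 18115 genes so filtered did, with a median difference of 0.70 beside 0.09. Across these 49 genes, which are not independent, the ratios had a Spearman rho of 0.44. Of the 49, 27 were higher in both genotypes and none was lower in both.

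**Figure D4:**
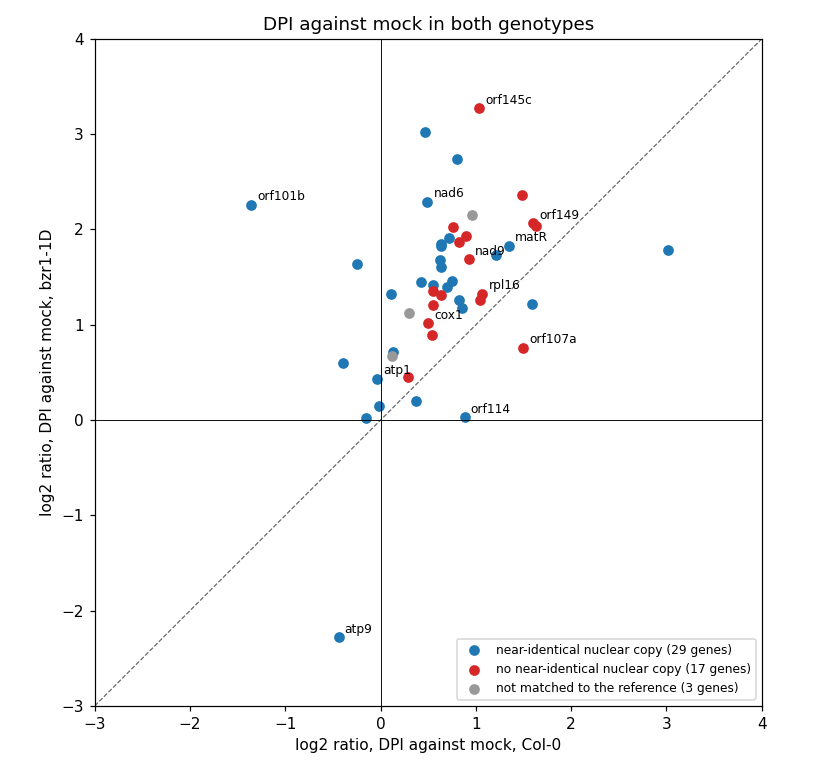
Log2 ratio of DPI against mock in Col-0 (x axis) and in bzr1-1D (y axis) for the 49 members averaging 1 FPKM or more over these 4 groups, coloured by whether a near-identical nuclear copy was found; the dashed line marks equal ratios. Of the 49, 43 lie above the line, and atp9 lies below 0 on both axes.

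Without DPI, many members were lower in bzr1-1D than in Col-0. The bzr1-1D mock means used here, which appear to rest on 2 libraries, also enter the DPI ratios in bzr1-1D. Of 102 members in the table of the mock groups, 49 were lower and 15 higher, or 48.0% and 14.7%, beside 19.3% and 29.2% of all genes, and the median log2 ratio was -0.52 beside 0.16. Averaging 1 FPKM or more, 2 of 42 members were higher and 15 lower, beside 26.0% and 15.4% of all genes. Plastid-encoded genes were lower in 75 of 88. For nad6, the means were 1.67 FPKM in the wild type and 0.525 FPKM in the mutant, and nad9 and rps3 were at 0.499 and 0.497 of their Col-0 values, while the ratio was 1.03 for both cox1 and nad7. With DPI in both genotypes the members' median was close to that of all genes. Of 114 members, 32 were higher and 23 lower in bzr1-1D, or 28.1% and 20.2%, beside 30.5% and 13.5% of all genes, with a median of 0.23 beside 0.21. Centred on the median nuclear gene, 25 were higher and 28 lower, with a median of 0.03. Averaging 1 FPKM or more, 13 of 58 were higher and 4 lower, beside 26.1% and 8.95%.

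With H2O2 added to DPI, most members lay above the mock level. Of 111 members in the table of bzr1-1D DPI+H2O2 against bzr1-1D DPI, 20 were higher and 41 lower, or 18.0% and 36.9%, beside 30.4% and 8.47% of all genes, and the median log2 ratio was -0.13 beside 0.30. Centred on the median nuclear gene, 13 were higher and 51 lower, with a median of -0.42. Averaging 1 FPKM or more, 5 of 56 were higher and 15 lower, beside 27.2% and 4.18%. The members of known role gave 5 higher and 7 lower of 37, with a median of -0.01, and the open reading frames 15 higher and 34 lower of 74, with a median of -0.37. Lower with H2O2 were matR, at 0.614, orf149, at 0.619, orf275, at 0.511, orf107h, at 0.568, and ccmFN1, at 0.589 of the DPI value. The member cob was 1.74-fold higher. Of the 10 members of known role without a near-identical nuclear copy, none was at least 1.5-fold apart. Of these, 6 lay above and 4 below the DPI value, with a median log2 ratio of 0.04. Against bzr1-1D mock, 76 of 106 members were higher and 10 lower, beside 20.5% and 15.7% of all genes, with a median of 1.26, and among the 47 averaging 1 FPKM or more 37 were higher and 1 lower, beside 16.5% and 10.5%. This table shares its mock group with the DPI comparison in bzr1-1D.

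Transcription and maturation of mitochondrial RNA are carried out largely by nuclear-encoded proteins, and 18 nuclear genes of this kind were listed. None was higher and 2 were lower with DPI in Col-0, beside 8.41% and 30.1% of all genes, with a median log2 ratio of -0.03. In bzr1-1D 9 were higher and none lower, beside 18.6% and 32.3%, with a median of 0.58. Against Col-0 mock, bzr1-1D mock had none higher and 6 lower, beside 29.2% and 19.3%. PMH1, annotated as a mitochondrial RNA helicase, had means of 27.0 and 37.9 FPKM in Col-0 and 13.8, 55.4 and 44.4 FPKM in the bzr1-1D groups. The RNA editing factor gene MORF1 had 14.6 and 15.3 FPKM in Col-0 and 14.4, 30.1 and 34.7 FPKM in bzr1-1D. BIR6, a pentatricopeptide repeat protein gene, was at 2.93 and 3.99 FPKM and at 1.40, 5.27 and 3.30 FPKM. AT5G14580, annotated as a polyribonucleotide nucleotidyltransferase, an RNA-degrading enzyme, had 1.58 and 1.98 FPKM in Col-0 and 1.24, 4.14 and 3.98 FPKM in bzr1-1D. MGP3 (AT1G68990), one of the listed RNA polymerase genes, had 3.93 and 2.27 FPKM in Col-0 and 3.49, 4.98 and 6.30 FPKM in bzr1-1D. The editing factor gene RIP1, also called MORF8, was the most abundant of the list, at 218.3 and 259.5 FPKM and at 209.8, 422.1 and 312.9 FPKM. OTP43, another pentatricopeptide repeat protein gene, had 8.19 and 6.79 FPKM and 8.01, 6.00 and 6.37 FPKM.

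The 4-base core motif of plant mitochondrial promoters was looked for at annotated 5' ends of transcripts. Whether these ends are transcription starts was not tested, so the shares below are not a result about promoters. Of 25 annotated 5' ends in the reference, a window of 30 bases before and 10 bases after held CATA or CGTA on the transcript strand in 5, or 20%, and 19.06% of all windows of that length in the mitochondrial genome, both strands, held either. The longer CATAAGAGA or CGTAAGAGA was in none of the 25, and in 0.10% of all windows.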

How the data were processed

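The authors made mRNA libraries from total RNA of the 14 samples, sequenced them on the BGISEQ-500 platform and mapped the reads with HISAT and Bowtie2 to genome TAIR10, per the submitters' processing notes, with no versions given in the sources used here. The deposited tables give, for each gene, the authors' mean of each group in FPKM, a unit inferred from the size of the values and their relation to gene length. Zeros were apparently set to 0.01 before deposit. The authors' log2 ratio, direction and NOISeq probability were not used. For this work 6 deposited files were used and 6 were not, of which 5 are filtered subsets and 1 ends within a row. Columns coded ERD were read as bzr1-1D from the table names. All columns of group means in the tables used were mapped to a group. The depth per sample is unknown.

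For each table, log2 ratios of the authors' means were computed over all genes listed, with no pseudocount. A gene was counted as higher or lower at 1.5-fold or more, and the members' counts and median were set beside those of all genes. Because there is 1 mean per group, no test was made. A gene missing from a table had no mean above 0.01 FPKM in either group. Reference coding sequences were matched with blastn 2.17.0, and annotations are RefSeq TAIR10.1. Every member of known role could be named. Of the open reading frames, the 5 highest, and in each DPI comparison the 3 largest and 3 smallest ratios with a mean of at least 1 FPKM, were named. The steps were tested on simulated data, in which only genes above the level of most members were changed and scored. Calls at the levels of most members were not tested. Members and lists were chosen with earlier results of these data known. Alternatives were a 2-fold threshold, 1 or 0.1 FPKM added, a minimum mean, 2 scalings, members without a nuclear copy and, chosen after seeing the data, members summed with their copy.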

Additional observations from a re-analysis of the deposited data

How the results depend on the processing

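No paired analysis was possible because the tables hold only group means, and leaving out a replicate or giving an error was not possible for the same reason. The sum without ribosomal RNA genes was not run, since none is listed. Of 156 alternative values, 41 moved, by over 1.5 times for a percent or by over 1.5-fold on the log2 scale for a median, and no median changed sign.

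With 1 FPKM added to each mean, which shrinks ratios of low genes by construction, the percent of members higher and lower was 2.94 and 14.7 between the mock groups, 9.65 and 2.63 for bzr1-1D DPI against Col-0 DPI, 22.3 and 1.79 for Col-0 DPI against Col-0 mock, 46.8 and 1.83 for bzr1-1D DPI against bzr1-1D mock, 2.70 and 13.5 for bzr1-1D DPI+H2O2 against bzr1-1D DPI, and 42.5 and 1.89 for bzr1-1D DPI+H2O2 against bzr1-1D mock. The median log2 ratio was then 0.54 for DPI and 0.46 for DPI+H2O2 against mock in bzr1-1D, 0.32 for DPI in Col-0, -0.21 between the mock groups, 0.10 for bzr1-1D DPI against Col-0 DPI and -0.08 for H2O2 added to DPI, and the median difference between the genotypes' DPI ratios was 0.30. At 2-fold, the percents were 15.8 higher and 13.2 lower for bzr1-1D DPI against Col-0 DPI, 38.4 and 5.36 for DPI in Col-0, and 9.01 and 21.6 for H2O2 added to DPI.

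With a mean of at least 1 FPKM, 4.76% were higher between the mock groups and 8.93% for H2O2 added to DPI, and the percent lower was 6.90 for bzr1-1D DPI against Col-0 DPI, 4.0 for DPI in Col-0, 2.04 for DPI in bzr1-1D and 2.13 for DPI+H2O2 against mock. Without members with a near-identical nuclear copy, 4.17% were higher between the mock groups and 4.0% for H2O2 added to DPI, and 11.5% were lower for bzr1-1D DPI against Col-0 DPI and 4.0% for DPI+H2O2 against mock. With members summed with their nuclear copy, the percent lower was 11.4 for bzr1-1D DPI against Col-0 DPI, 0.917 for DPI in bzr1-1D and 5.66 for DPI+H2O2 against mock, and 10.8% were higher for H2O2 added to DPI, where the median was -0.33. Centred on the median nuclear gene, 11.7% were higher for H2O2 added to DPI, with a median of -0.42, and for bzr1-1D DPI against Col-0 DPI the balance turned to 25 higher and 28 lower, with a median of 0.03. The median nuclear gene itself lay at log2 ratios of -0.28 for DPI in Col-0 and -0.24 in bzr1-1D.

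The summed level without members with a near-identical copy was 0.0172%, 0.0363%, 0.0155%, 0.0378% and 0.0360% of all genes in Col-0 without and with DPI and in bzr1-1D without DPI, with DPI and with DPI+H2O2, and without the 3 most abundant members 0.0210% in bzr1-1D mock. Most members are short, with an unknown number of reads behind each value. With unlisted members set to 0.01 FPKM, the median member stood at 0.66 and 0.77 FPKM in Col-0 without and with DPI. In bzr1-1D without DPI, with DPI and with DPI+H2O2 it stood at 0.45, 0.99 and 0.795 FPKM.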
